A study of Mus musculus with 10 samples.

Results

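The genes described here are the 80 genes of cytosolic ribosomal proteins in a mouse brain single-nucleus data set, of 23589 genes in its table. A gene was taken when its symbol is Rpl or Rps followed by digits and at most one of the letters a, l, x or y, or is Rplp0, Rplp1, Rplp2 or Rpsa. This gives 49 genes of the large (60S) subunit and 31 of the small (40S) subunit, and no measured value entered the choice. Each of the 80 had at least 1 UMI (unique molecular identifier, a tag that marks 1 captured RNA molecule).

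The libraries came from C57BL/6 mice, an inbred laboratory strain, and were made with DroNc-seq, which captures single nuclei with barcoded beads in droplets. Frozen, archived brain tissue of 2 regions was used: the hippocampus, and a cortical dissection described as prefrontal cortex. The series names 4 mice, names no treatment, and does not tie a library number to a mouse. A unit is therefore a library number within a region, 4 in hippocampus and 4 in cortex, with libraries a and b of number 0 summed, and every p-value rests on the spread from unit to unit, part of which may be technical.

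Ribosomal proteins and ribosomal RNA together form the ribosome, the particle that translates messenger RNA into protein. The messenger RNAs of ribosomal proteins share a tract of pyrimidines (C and T) at the 5′ end, through which mTOR signalling sets their translation, and they are among the most abundant messages of the cytoplasm. The libraries were made from isolated nuclei, and RNA from outside the nucleus was not separated from nuclear RNA in the counts.

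In all, 11624 nuclei were used, 5658 hippocampal and 5966 cortical. Each of the 10 libraries had 1443244 to 2600788 UMIs. Nuclei were clustered without the ribosomal protein genes, and clusters were named from marker genes, so a class is called X-like. Clusters left unnamed held 1722 of the hippocampal and 879 of the cortical nuclei. At most 3 cell barcodes were shared by any pair of libraries. The libraries of number 0 stood apart in both regions. Their counts differed from those of numbers 1 to 3 by 3.99 to 4.31 in hippocampus and by 6.02 to 6.78 in cortex (chi-square over its degrees of freedom, where 1 is sampling noise). Among numbers 1 to 3 it was 1.49 to 1.70 in hippocampus and 1.34 to 1.39 in cortex, and between libraries a and b of number 0 it was 1.42 and 1.78, so no pair agreed within sampling noise. Hippocampus 0 also differed in its nuclei: 655 of its 2374 nuclei fell in 1 unnamed cluster led by mitochondrial ribosomal RNA, with a median of 444 UMIs per nucleus, against 4 to 10 nuclei of that cluster in the other hippocampal units. Mitochondrially encoded transcripts made up 0.125% ± 0.011 (SD over 4 units) of hippocampal UMIs and 0.049% ± 0.003 of cortical ones.

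The start sites of 8 members are shown to compare members with and without a run of pyrimidines there, since the family is known for such a tract. They are from the RefSeq promoter table of build GRCm38.p6, 10 bases before the start and the first 10 bases of the transcript, on the strand of the gene. Capitals mark an unbroken run of at least 6 C or T bases that overlaps the bases from -5 to 5.
Rpl13a (chr7:45128736-45128755, minus strand): cctgcgacaagaCCTCCTCC
Rpl14 (chr9:120571507-120571526, plus strand): ggCCCTCTCTCTTCTCgctg
Rps9 (chr7:3704031-3704050, plus strand): cttgTCTCTCTTTgtctcgg
Rpl35 (chr2:39005122-39005141, minus strand): ccgCCCTTTCCTCTTTCTCT
Rps3 (chr7:99483700-99483719, minus strand): aagggtcgccgcgctgcgcg
Rpl4 (chr9:64173377-64173396, plus strand): TTTCCTgtgggagcagccgg
Rpl11 (chr4:136053384-136053403, minus strand): ccataaggccacggggccgg
Rpsa (chr9:120127756-120127775, plus strand): ttatttaaggacgtcatttc
Rpl13a, Rpl14, Rps9, Rpl35 and Rpl4 hold such a run, which in Rpl4 lies before the start, and Rps3, Rpl11 and Rpsa do not. An entry was found for 60 of the 80 members, and 31 of the 60 had such a run at a listed start, as did 23.0% of the 27025 symbols in the table. Fewer than 80% of the members have an entry, so a comparison of the 80 with all genes is void.

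The 80 genes together gave 81682 of 20229036 UMIs, or 0.404%, with a median of 655.5 UMIs per gene. The 6 with the highest level were Rpl13a, Rps14, Rpl4, Rps19, Rpl41 and Rps3. Rpl13a, a 60S protein that also serves in interferon-induced translational silencing, led with 4239 UMIs and 4049 UMIs per kilobase of transcript. Rps14, a 40S protein, had fewer UMIs, 3666, and more per kilobase, 4670. Rpl4 had 2142, Rps19 4079, Rpl41 4491 and Rps3 1344 UMIs per kilobase. The order by raw UMIs and by UMIs per kilobase thus differed. DroNc-seq primes at the poly(A) tail, so UMIs need not scale with transcript length.

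Many ribosomal protein genes have processed copies elsewhere in the genome, and reads that match several places can be lost or split. In the last 300 bases of the transcript, 40 members shared under 50% of their 50-base words with transcripts of other genes and 40 shared 50% or more (GENCODE M21 transcripts). The first 40 had a median of 683.5 UMIs and the second 40 of 623. Rpl13a, Rpl4 and Rps3 shared 0%, while Rps27 and Rpl10 shared 100%. These values rest on a single transcript per gene, the longest protein-coding one, with principal transcripts preferred. For Rps15a and Rps20 it had 5179 and 3706 bases, against a median of 882, and both shared 0%. The end of the chosen transcript need not be the end that was captured, so the shared part can be misjudged. Whether the authors' counting lost reads that match several places was not tested.

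The tissue-restricted copies among the members were near the floor. Rpl3l, a muscle form of Rpl3, had 15 UMIs against 1798 of Rpl3. Rpl10l and Rpl39l, both known from the testis, had 6 and 4 UMIs, against 160 of Rpl10 and 489 of Rpl39. The exception was Rps27l, a p53-responsive copy, with 523 UMIs against 115 of Rps27, whose 3′ sequence is fully shared with other genes. Per kilobase of transcript this is 1048 UMIs for Rps27l and 333 for Rps27. Rps4x, the X-linked form of a 40S protein, had 267 UMIs.

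The first comparison is between the regions, over all nuclei of a unit. Ribosomal protein genes took a larger share of UMIs in hippocampus. The share in units 0 to 3 was 0.452%, 0.556%, 0.512% and 0.603% in hippocampus, and 0.305%, 0.317%, 0.345% and 0.337% in cortex. The lowest hippocampal unit, number 0, lay above the highest cortical unit. The means were 0.531% ± 0.064 and 0.326% ± 0.018 (SD, n = 4 units each), a difference of 0.204 points (two-sided exact permutation test over units, p = 0.0286, the smallest the 70 arrangements allow). In sums of this kind, more nuclei of a type with high levels and more RNA per nucleus cannot be told apart. With numbers 1 to 3 alone the difference was 0.224 points (exact permutation p = 0.1, again the smallest possible).

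**Figure D1:**
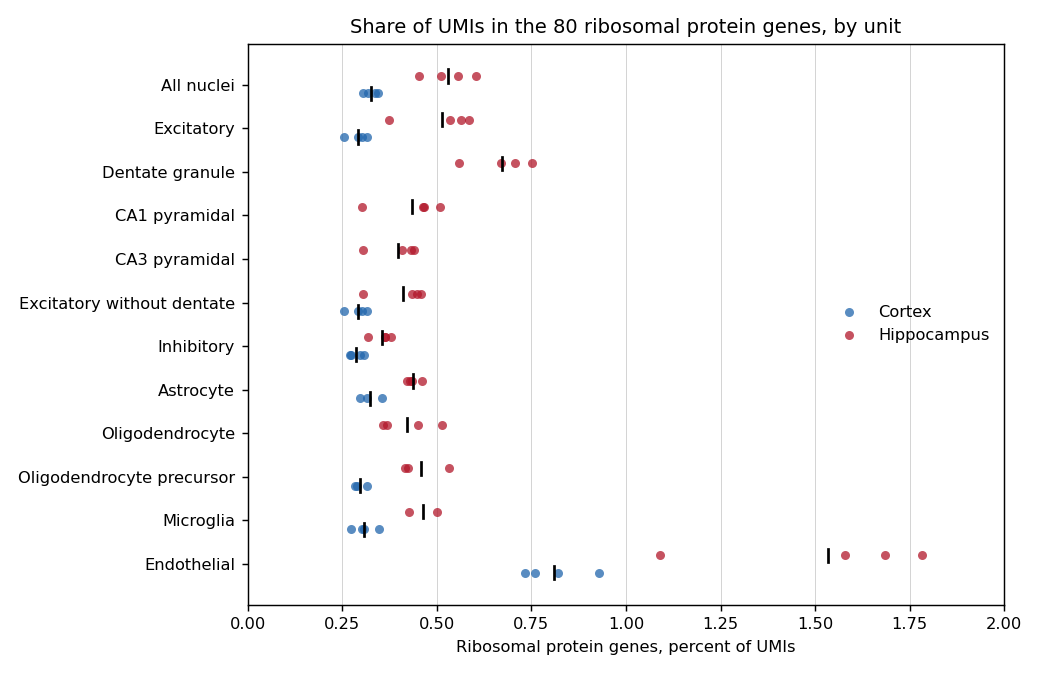
Share of all UMIs in the 80 ribosomal protein genes (x axis, percent) for all nuclei and for each class (y axis). Each point is a unit with at least 20 nuclei of that class, and black bars are means. Hippocampal units lie to the right of cortical ones in all nuclei (0.452% to 0.603% against 0.305% to 0.345%), and endothelial-like nuclei lie farthest to the right in both regions.

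Gene by gene, 76 of the 80 members passed edgeR's filter on low counts. Of these, 52 were higher in hippocampus and none was lower at a Benjamini-Hochberg adjusted p under 0.05 (edgeR quasi-likelihood test). Over all 12855 genes tested, 9.19% were higher and 1097 genes lower. The calls covered 28 of 45 tested 60S genes and 24 of 31 tested 40S genes. The median log2 fold change was 0.69 over the tested members and -0.01 over all genes tested. Rpl10l, Rpl28, Rpl39l and Rpl3l were not tested. With numbers 1 to 3 alone, 57 members rose and the median was 0.77. The share over all genes in that fit is not given here.

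Among the 60S genes, Rpl38 led those at 20 or more CPM (UMI counts scaled to a common library total with TMM factors) over both regions. Its protein has been tied to the translation of Hox messages in development. It stood at 21.8, 53.5, 27.4 and 35.4 CPM in hippocampal units 0 to 3, and at 13.7, 9.86, 6.80 and 8.88 CPM in cortical units 0 to 3. Every hippocampal unit exceeded every cortical unit (log2 fold change 1.73 ± 0.29 SE, edgeR adjusted p = 0.00135). The genes named from here to Rpsa had to be past the threshold and without overlap, so both traits were set by the choice. Rpl35a, a gene mutated in some cases of Diamond-Blackfan anaemia, stood at 35.1, 95.5, 59.1 and 92.1 CPM against 24.9, 32.6, 23.4 and 27.5 CPM. These groups did not overlap, although hippocampus 0 was close to the cortical range (1.35 ± 0.27, edgeR adjusted p = 0.00407). Rpl37, a zinc-binding protein of the 60S core, stood at 74.5, 173, 114 and 204.9 CPM against 28.1, 66.0, 63.7 and 67.2 CPM. Hippocampus 0 was again the lowest of its region, and cortex 0 lay far under the other cortical units (1.34 ± 0.31, edgeR adjusted p = 0.00976). Rpl11, which binds Mdm2 and so ties ribosome assembly to p53, stood at 26.6, 40.1, 26.7 and 40.4 CPM against 15.3, 9.43, 14.0 and 18.2 CPM. Its regions were also apart (1.21 ± 0.22, edgeR adjusted p = 0.00227).

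Among the 40S genes, Rps28 and Rpsa led. Rps28 sits near the messenger RNA exit site of the ribosome and stood at 37.1, 52.2, 40.8 and 73.5 CPM in hippocampus against 24.2, 18.9, 25.1 and 18.6 CPM in cortex. No unit of the regions overlapped (1.20 ± 0.21, edgeR adjusted p = 0.00191). Rpsa, which is also known as a laminin receptor, stood at 37.4, 26.8, 35.9 and 31.4 CPM against 14.8, 7.72, 15.7 and 21.1 CPM. Here hippocampus 0 was the highest unit, unlike the genes above (1.15 ± 0.24, edgeR adjusted p = 0.00445).

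The 3 proteins of the ribosomal stalk, which recruits elongation factors, all rose. Rplp0 had a log2 fold change of 0.64 ± 0.15 (edgeR adjusted p = 0.0104), Rplp1 of 0.69 ± 0.12 (0.00125) and Rplp2 of 0.77 ± 0.20 (0.0149). None of the 3 had overlapping regions. Of the 6 members with the highest level, Rpl13a had a mean of 258 ± 15.9 CPM in the hippocampal units and 182 ± 13.8 CPM in the cortical ones (SD, n = 4 each, log2 fold change 0.50 ± 0.09, edgeR adjusted p = 0.00249). Rpl4 and Rps3 had log2 fold changes of 0.45 each, and Rps19 and Rpl41 of 0.80 and 0.82 (edgeR adjusted p = 0.00476, 0.022, 0.0314 and 0.0198).

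**Figure D2:**
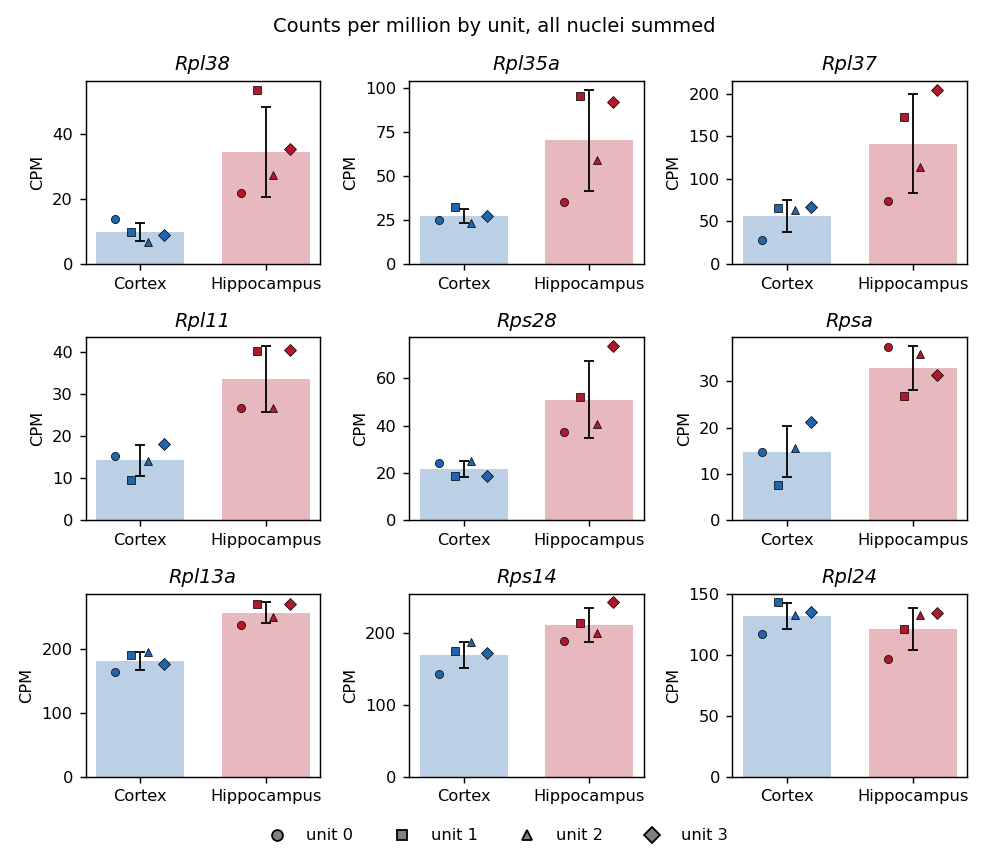
CPM by unit for 9 genes, all nuclei summed. Bars are means, whiskers SD over 4 units, and symbols the units 0 to 3. Rpl38 to Rpsa were named by a rule that asks for no overlap, and have every hippocampal unit above every cortical unit. Rpl24 overlaps (121 ± 17.5 CPM in hippocampus, 132 ± 10.8 CPM in cortex).

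Not every member moved. Rpl24, a 60S protein at the bridge between the subunits, stood at 96.5, 122, 133 and 134 CPM in hippocampus and 117, 143, 133 and 135 CPM in cortex (log2 fold change -0.13 ± 0.12, edgeR adjusted p = 0.521). The regions overlapped for this gene, and it is one of the more abundant members. Rpl5, the partner of Rpl11 in the 5S particle, had a log2 fold change of 0.01 ± 0.16, Rpl12 of -0.02 ± 0.17, Rpl9 of -0.10 ± 0.14 and Rpl17 of -0.18 ± 0.27. Rps14 averaged 211 ± 23.1 CPM against 169 ± 18.6 CPM, without overlap, and missed the threshold (0.32 ± 0.11, edgeR adjusted p = 0.0689). These genes were chosen for mention after their values were seen. Members with under 50% shared 3′ sequence had a median log2 fold change of 0.68 (36 genes) and the others of 0.70 (40 genes).

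**Figure D3:**
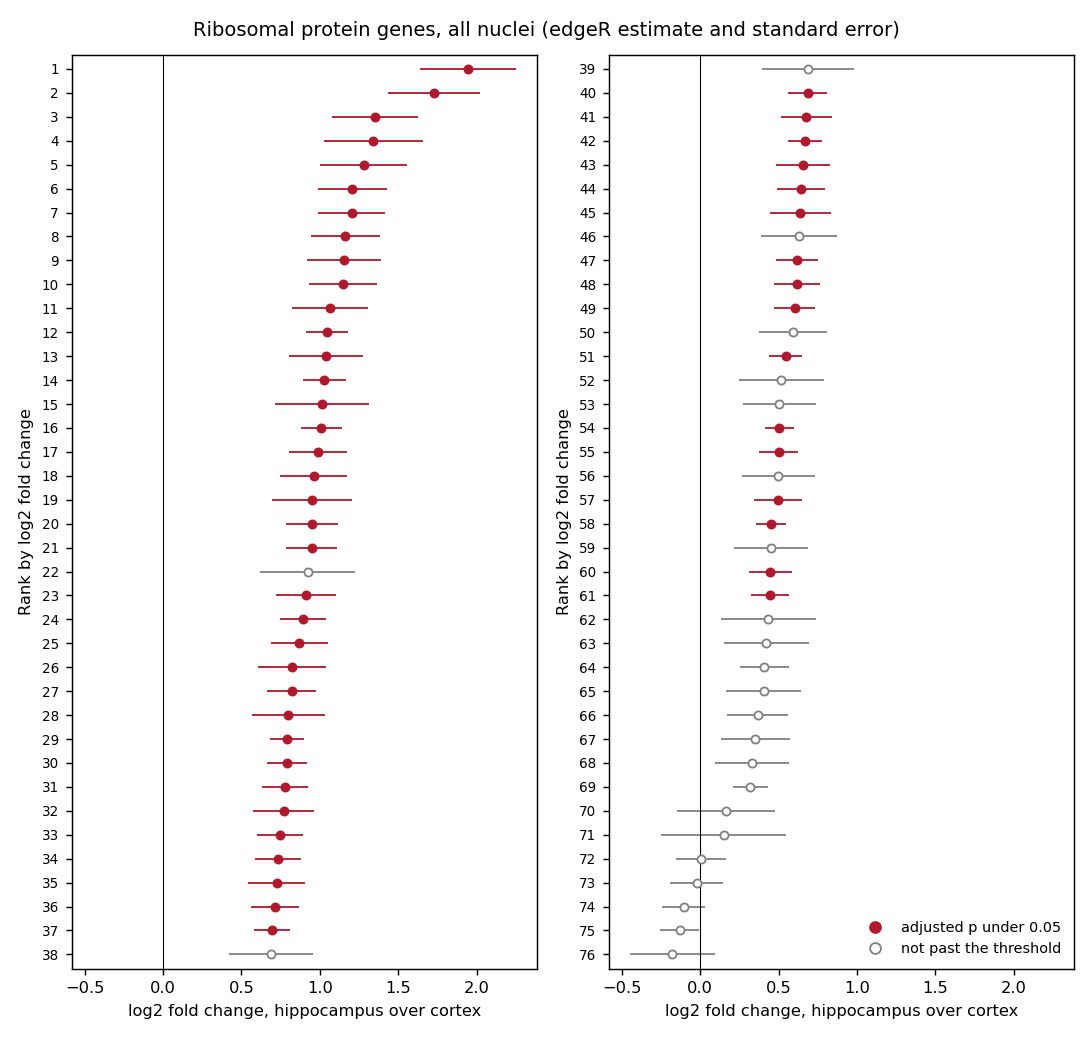
Log2 fold change of hippocampus over cortex with its standard error for the 76 ribosomal protein genes tested (x axis), ranked from the highest to the lowest (y axis, rank). Filled points have an edgeR adjusted p under 0.05, 52 in all, and no gene below 0 passed.

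The region comparison was repeated within classes. In excitatory neuron-like nuclei (2266 of hippocampus, 3789 of cortex) the share was 0.373%, 0.565%, 0.535% and 0.584% in hippocampal units 0 to 3 and 0.253%, 0.292%, 0.302% and 0.316% in cortical ones. The groups did not overlap, with means of 0.514% ± 0.096 and 0.291% ± 0.027 (exact permutation p = 0.0286, 0.04 after Benjamini-Hochberg adjustment over the 7 sets of nuclei tested). Different clusters hold most of this class in the regions: a cluster led by C1ql2 and Prox1 (1178 nuclei) and one led by Mndal and Ttn (507) in hippocampus, and clusters led by Otof, Pamr1, Col6a1 or Igfn1 (943, 833, 621 and 569 nuclei) in cortex. Mitochondrial transcripts differed as well, 0.068% ± 0.014 against 0.025% ± 0.003, and their part in the result was not tested.

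Of 75 members tested in excitatory neuron-like nuclei, 47 rose in hippocampus and none fell (edgeR), and their median log2 fold change was 0.84. Over all 10841 genes tested, 8.73% rose and 807 genes fell. Rpl37 had 72.1, 196, 127.95 and 215 CPM in hippocampal units 0 to 3 against 27.1, 64.2, 56.4 and 60.2 CPM in cortical ones (1.56 ± 0.32, edgeR adjusted p = 0.00401). Its regions did not overlap, with hippocampus 0 nearest to cortex. Rpl3, the protein beside the peptidyl transferase centre, had 105, 141, 167 and 131 CPM against 47.4, 52.1, 47.1 and 69.7 CPM, again apart (1.32 ± 0.18, edgeR adjusted p = 0.000177). Rpl37a (1.41 ± 0.26), Rps28 (1.33 ± 0.26), Rpl11 (1.21 ± 0.25) and Rps26 (1.16 ± 0.22) also rose, with edgeR adjusted p of 0.0019, 0.00328, 0.00418 and 0.00267. With numbers 1 to 3 alone 59 members rose. Without hippocampus 3 or hippocampus 1 the count of members called fell to 30 and 31. The shares over all genes in these fits are not given here, so a change in the overall rate of calls is not separated.

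Dentate granule-like nuclei, the largest hippocampal part of this class, were then left out, a choice made after the data were seen. The share was 0.305%, 0.458%, 0.435% and 0.446% in hippocampal units 0 to 3. Hippocampus 0 then lay inside the cortical range and the others above it (0.411% ± 0.071 against 0.291% ± 0.027, exact permutation p = 0.0571). The cluster led by Mndal and Ttn holds 507 hippocampal nuclei, and most other hippocampal nuclei left lay in clusters with a cortical majority. Hippocampus 0 kept 470 nuclei and had 53 CA1 pyramidal-like ones, against 197 to 226 and 80 to 106 in the other hippocampal units. The part of this make-up in the result was not tested. The members called fell to 7 of 69 tested (edgeR): Rpl13a, Rpl3, Rpl37a, Rpl38, Rpl6, Rps15 and Rps28. Over all 10576 genes tested 3.24%, or 343, rose, against 946 with dentate granule-like nuclei included. The median log2 fold change of the tested members was 0.56, and 66 of the 69 lay above 0. Rpl11 and Rps26 were then at 0.67 each and Rpl37 at 1.15 (edgeR adjusted p = 0.276, 0.166 and 0.074). Rpl38 had a log2 fold change of 1.76 ± 0.38 and Rpl3 of 1.01 ± 0.19 (edgeR adjusted p = 0.0141 and 0.00539).

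Within the hippocampus, the share ran from dentate granule-like over CA1 pyramidal-like to CA3 pyramidal-like nuclei, at 0.671% ± 0.083, 0.435% ± 0.091 and 0.396% ± 0.062 (SD, n = 4 units). The difference between CA1 and CA3 pyramidal-like nuclei was not tested. Dentate granule-like nuclei were higher than CA1 pyramidal-like ones in 4 of 4 units, by 0.236 points on average (exact sign-flip permutation p = 0.125, the smallest 4 units allow). Mitochondrial transcripts made up 0.093% ± 0.023 and 0.055% ± 0.008 of the UMIs, and the median depth of a nucleus was 974 to 1270 and 1763.5 to 1973 UMIs by unit. Their part in the result was not tested.

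Of 45 members tested between dentate granule-like and CA1 pyramidal-like nuclei, 18 were higher in the former and none lower (edgeR with unit as a block). Over all 5692 genes tested, 11.5% were higher and 700 genes lower. The median log2 fold change was 0.52, against 0.01 over all genes tested. Rplp0 had 130, 56.5, 114 and 99.6 CPM in dentate granule-like nuclei of units 0 to 3 and 69.2, 6.75, 44.2 and 34.5 CPM in CA1 pyramidal-like ones. It was higher in each unit (1.42 ± 0.32, edgeR adjusted p = 0.000228), from 137 and 20 UMIs in all. Rps2, a 40S protein at the messenger RNA entry site, had 219, 249, 288 and 268 CPM against 148, 148, 140 and 121 CPM, with no overlap (0.90 ± 0.19, edgeR adjusted p = 7.63e-05). Rps9 (0.91 ± 0.24), Rpl36 (1.34 ± 0.45) and Rpl23 (1.07 ± 0.39) were likewise higher in every unit, with edgeR adjusted p of 0.00208, 0.0178 and 0.0327. Nuclear-retained RNAs moved the other way in the same comparison, with 5 of 6 tested lower and a median of -1.69. Whether this reflects the cell type or the nuclear part of the RNA was not tested. Without hippocampus 3 the count of members called fell to 11, and Rps9 (0.75, edgeR adjusted p = 0.0634) and Rpl23 (1.14, 0.078) lost their calls. Rpl23 and Rpl36 lost theirs without hippocampus 1 (0.77 and 1.03, edgeR adjusted p = 0.265 and 0.148), and Rpl36 without hippocampus 0 (1.32, 0.0693).

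In inhibitory neuron-like nuclei the share was 0.318%, 0.363%, 0.380% and 0.362% in hippocampal units 0 to 3 and 0.270%, 0.307%, 0.274% and 0.298% in cortical ones. The ranges did not overlap, with means of 0.356% ± 0.026 and 0.287% ± 0.018 (exact permutation p = 0.0286, adjusted 0.04). None of the 27 members tested was called by edgeR, where 0.382% of 4970 genes tested were called in either direction. At an unadjusted p under 0.05 there was 1 such member, and DESeq2, which gave 2 members an adjusted p, called 0.

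Astrocyte-like nuclei had 0.436% ± 0.018 in hippocampus (n = 4) and 0.323% ± 0.030 in cortex (n = 3, exact permutation p = 0.0286, adjusted 0.04). None of the 20 members tested there was called by edgeR, where 3.10% of 2806 genes tested were called in either direction, with 4 members at an unadjusted p under 0.05 and 0 called by DESeq2. Oligodendrocyte precursor-like nuclei had 0.458% ± 0.065 and 0.296% ± 0.016 (n = 3 each), without overlap, and the exact permutation p of 0.1 (adjusted 0.1) is the smallest for 3 against 3. Microglia-like nuclei had 0.427% and 0.501% in the pair of hippocampal units with at least 20 nuclei and 0.274% to 0.348% in cortex (exact permutation p = 0.0667, adjusted 0.0778).

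Endothelial-like nuclei (193 of hippocampus, 191 of cortex) are named for the cells that line the blood vessels of the brain. Their cluster was led by Rgs5, Flt1 and Itm2a, with Hbb-bs also among the leading genes. No marker list for other vessel cells was used, so the class may include them. Endothelial-like nuclei had the highest share in both regions. It was 1.09%, 1.69%, 1.58% and 1.78% in hippocampal units 0 to 3 and 0.733%, 0.758%, 0.928% and 0.819% in cortical ones. The ranges were apart, and hippocampus 0 was the lowest of its region (exact permutation p = 0.0286, adjusted 0.04). Of 36 members tested, 10 rose in hippocampus and none fell (edgeR), where 0.877% of 2966 genes tested rose and 36 genes fell. Rpl34 had 281, 469, 421 and 651 CPM against 150, 138, 250 and 99.9 CPM (1.45 ± 0.30, edgeR adjusted p = 0.0165), and Rpl14 had 445, 732, 877 and 629 CPM against 332, 245, 310 and 262 CPM (1.10 ± 0.23, 0.0202). Both were higher in each hippocampal unit than in any cortical one. Rpl35a (1.49 ± 0.35), Rps21 (1.33 ± 0.34), Rps26 (1.12 ± 0.26) and Rps15 (1.10 ± 0.25) were likewise apart, with edgeR adjusted p of 0.0325, 0.0435, 0.0319 and 0.0248. In nuclei with no hemoglobin UMI, Rpl14 was at 0.23 (edgeR adjusted p = 0.955), Rps26 at 0.19 (0.967), Rpl34 at 1.51 (0.26) and Rps15 at 0.88 (0.679), so that these 4 calls were lost. All 6 genes named here also lost their call without hippocampus 3, and Rps21 and Rps26 lost it in 8 alternatives each. The count rests on single units: it was 0 without hippocampus 3, 2 without hippocampus 2, 4 without hippocampus 1, 6 without cortex 3, 26 without hippocampus 0, and 21 with numbers 1 to 3 alone. For these fits too, the shares over all genes are not given.

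The next comparison sets each class against excitatory neuron-like nuclei of the same unit. Its tests treat the units as independent, although hippocampal and cortical units may come from the same mouse. With 4 independent units no sign-flip p could fall under 0.125. Endothelial-like nuclei had the higher share in 8 of 8 units, 1.17% ± 0.44 against 0.403% ± 0.136 (SD over units), a difference of 0.769 points (exact sign-flip permutation p = 0.0078, adjusted 0.0469 over 6 classes). In nuclei thinned to 500 UMIs, the median number of ribosomal protein UMIs was 6 in hippocampal and 4 in cortical endothelial-like nuclei, against 2 and 1 in excitatory neuron-like ones. Thinning left out 8 and 0 endothelial-like and 146 and 1 excitatory neuron-like nuclei, whose median depths before thinning were 1710, 2495, 1394.5 and 1300.5 UMIs.

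Of 55 members tested, 49 were higher in endothelial-like nuclei and 3 lower (edgeR with unit as a block), where 31.8% of 9287 genes tested were higher and 39.3% lower. The median log2 fold change was 1.43 over the tested members and -0.17 over all genes tested. Those named by size are Rplp0, Rps27l, Rps3, Rpl8 and Rps9. Rps3, a 40S protein that also acts in DNA repair, had 516, 280, 490 and 595 CPM in cortical and 620, 758, 625 and 859 CPM in hippocampal endothelial-like units, against 82.0 to 141 CPM in the excitatory sums. Each endothelial value exceeded each excitatory value (log2 fold change 2.48 ± 0.15, edgeR adjusted p = 3.06e-15). Rplp0 rose by 2.49 ± 0.16, Rps27l by 2.49 ± 0.20, Rpl8 by 2.44 ± 0.14 and Rps9 by 2.44 ± 0.14, each higher in 8 of 8 units (edgeR adjusted p = 4.29e-14, 2.56e-12, 2.59e-15 and 1.26e-15).

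Rpl24, Rpl5 and Rpl12 were the 3 members lower in endothelial-like nuclei. Rpl24 had 58.4, 33.6, 68.2 and 44.4 CPM in cortical and 58.0, 42.9, 24.1 and 57.8 CPM in hippocampal endothelial-like units, against 126 to 178 CPM in the excitatory sums. It was lower in 8 of 8 units (-1.45 ± 0.19, edgeR adjusted p = 1.11e-07). Rpl5 changed by -1.31 ± 0.37 (edgeR adjusted p = 0.0023, 18 UMIs in the endothelial-like sums) and Rpl12 by -1.38 ± 0.40 (0.00287), the latter not in every unit. These are genes that also showed no difference past the threshold between the regions. In oligodendrocyte-like nuclei, the myelin-forming glia, Rpl24 was lower too, at 39.5, 18.8, 57.1 and 56.7 CPM in hippocampal units 0 to 3 against 123, 161, 129 and 176 CPM in excitatory neuron-like ones (-1.81 ± 0.48, edgeR adjusted p = 0.00124, from 9 UMIs). At a cluster resolution of 1.0 this was -0.28 (edgeR adjusted p = 0.26). In endothelial-like nuclei with no hemoglobin UMI, tested in 4 units, Rpl5 was at -1.45 (edgeR adjusted p = 0.0916).

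Endothelial-like nuclei also differed in RNA of other compartments and cells. Mitochondrial transcripts made up 0.733% ± 0.249 of their UMIs in hippocampus and 0.369% ± 0.093 in cortex, against 0.068% ± 0.014 and 0.025% ± 0.003 in excitatory neuron-like nuclei. Hemoglobin genes (7 rows), which mark red blood cells, made up 0.660% ± 0.261 and 0.562% ± 0.161, against 0.006% ± 0.003 and 0.005% ± 0.001. Nuclear-retained RNAs went the other way, with 6 of 7 tested lower and 1 higher (median log2 fold change -2.68). Such RNAs, with Snhg11, Malat1 and Neat1 among them, can also differ between cell types. Whether they measure the nuclear part of the RNA here was not tested. Lower levels of these RNAs were not particular to endothelial-like nuclei. Against excitatory neuron-like nuclei, 5 of 7 were also lower in astrocyte-like and in oligodendrocyte-like nuclei (medians -2.18 and -2.30). Mitochondrially encoded transcripts were higher there too, at 5 of 5 and 4 of 4 tested. Precursor-like and microglia-like nuclei had 4 of 7 nuclear-retained RNAs lower, and 0 of 2 and 0 of 3 mitochondrial ones called. In inhibitory neuron-like nuclei 3 nuclear-retained RNAs were higher and 2 lower. Endothelial-like nuclei with no hemoglobin UMI were a subset chosen after the data were seen. Their share was 0.991% against 0.382% in the 4 units that had at least 20 of them (4 of 4 higher, exact sign-flip permutation p = 0.125, the smallest possible). A nucleus without such a UMI may hold other RNA of blood cells. The parts of blood cell RNA and of mitochondrial transcripts in the result were not tested.

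The regional difference in share was set against that of excitatory neuron-like nuclei within each unit, in 3 classes on 2 scales. In points, endothelial-like nuclei exceeded excitatory ones by 1.02 ± 0.21 in hippocampus and 0.519 ± 0.073 in cortex (exact permutation p = 0.0286, adjusted 0.0571). As a log2 ratio these were 1.57 ± 0.03 and 1.48 ± 0.12 (exact permutation p = 0.229). Inhibitory neuron-like nuclei were at a log2 ratio of -0.51 ± 0.21 (SD over 4 units) in hippocampus and -0.02 ± 0.11 in cortex (exact permutation p = 0.0286, adjusted 0.0571).

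Inhibitory neuron-like nuclei had a share of 0.321% against 0.403% (exact sign-flip permutation p = 0.0469, adjusted 0.141, higher in 2 of 8 units). There, 6 of 50 members were lower and none higher (edgeR), where 10.7% of 8642 genes tested were lower and 851 higher. The count of lower members is near the share over all genes. Rplp1 was lower in 8 of 8 units (-0.62 ± 0.15, edgeR adjusted p = 0.00398), as was Rps18, a 40S head protein (-0.53 ± 0.15, 0.011). Rplp1 averaged 70.3 ± 17.6 CPM in inhibitory and 119 ± 48.5 CPM in excitatory sums. Its gap was widest in hippocampal units 1 to 3, at 69.5, 92.8 and 99.7 against 177, 173 and 179 CPM.

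In astrocyte-like nuclei 4 of 53 members were higher and 3 lower (edgeR), where 20.7% and 22.2% of 8560 genes tested were. Rps15a was lower in each of 7 units (-0.66 ± 0.26, edgeR adjusted p = 0.0388), and lost its call without cortex 1 or hippocampus 0, 1 or 3 (edgeR adjusted p = 0.0543, 0.0565, 0.113 and 0.107), with DESeq2 (0.0594) and with no block (0.122). The balance of higher and lower calls was 2 and 3 on library totals without TMM. It also turned with DESeq2, which changes the test as well (1 and 2), with no count filter, at a cluster resolution of 1.0 and with several single units left out. The share of oligodendrocyte-like nuclei was 0.422% against 0.514%, a difference of -0.092 points (higher in 1 of 4 units, exact sign-flip permutation p = 0.375, adjusted 0.609). In oligodendrocyte-like nuclei 1 of 56 was higher, Rps9 (1.07 ± 0.34, edgeR adjusted p = 0.00733), and 2 lower, where 11.8% of 7914 genes tested were higher and 16.8% lower. Rps9 lost its call without hippocampus 0 (0.53, edgeR adjusted p = 0.443), at a cluster resolution of 1.0 (0.43, 0.0995), with no count filter (0.84, 0.0847) and with DESeq2 (0.83, 0.167). None of 50 members was called in oligodendrocyte precursor-like nuclei, where 4.78% of 7595 genes tested were called in either direction, and none of 47 in microglia-like nuclei, where 5.07% of 8338 were. Unadjusted p under 0.05 held for 0 and 1 of them, and DESeq2 called 0 in both.

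**Figure D4:**
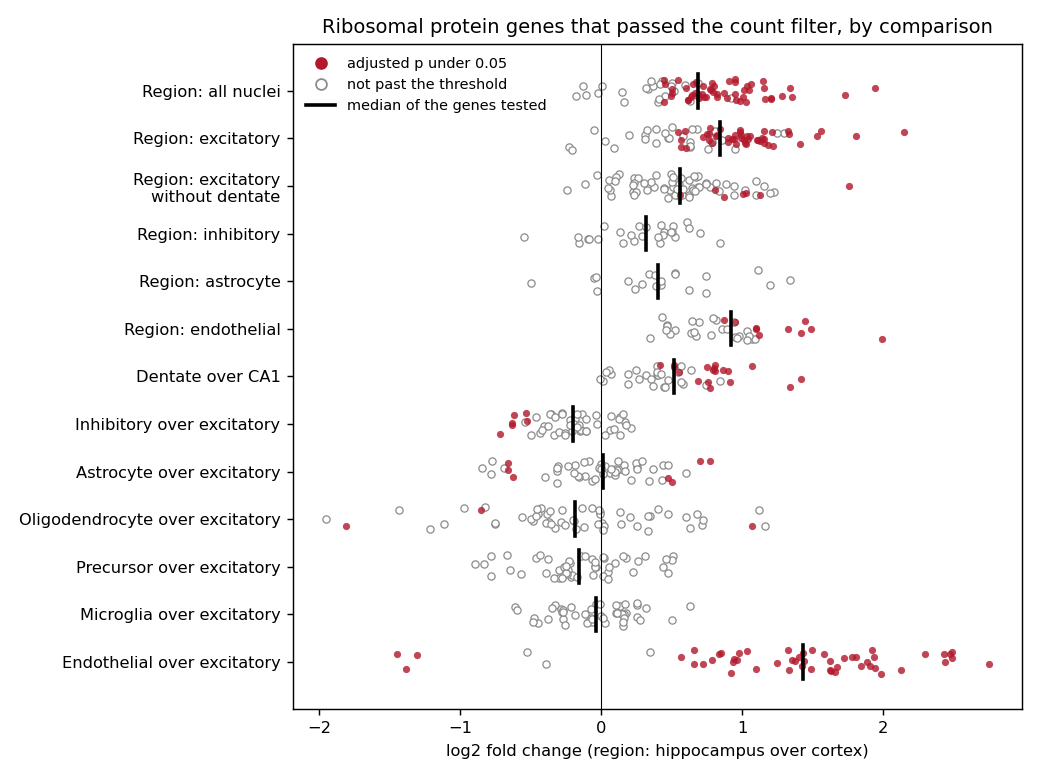
Log2 fold change (x axis) of each ribosomal protein gene that passed the count filter, by comparison (y axis). Filled points have an edgeR adjusted p under 0.05 and black bars are medians. The medians are 0.69 for the regions over all nuclei, 0.52 for dentate over CA1 and 1.43 for endothelial over excitatory.

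The last comparison is by nucleus depth, with the nuclei of each library ranked by UMI total and divided into 3 equal parts. The sign-flip tests, here and within excitatory neuron-like nuclei, again treat the 8 units as independent, although units of both regions may share a mouse. In the lowest part the share was 0.414% and in the highest 0.426%, a difference of -0.011 points (exact sign-flip permutation over 8 units, p = 0.43). Only hippocampus 0 had the higher share in the lowest part, 0.511% against 0.433%. Without it the difference was -0.024 points, and no p is given because the unit left out is the one of opposite sign. Of 75 members with at least 80 UMIs, 1 was higher in the lowest part in all 8 units, as were 0.613% of 12388 genes. That gene is Rps25, a 40S protein used in internal initiation, at 51.6 against 38.2 CPM.

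Within excitatory neuron-like nuclei the order turned. The share was 0.502% in the lowest and 0.364% in the highest part, higher in the lowest in 7 of 8 units, all but cortex 0 (difference 0.138 points, exact sign-flip permutation p = 0.0156). In hippocampus it was 0.699% ± 0.128 against 0.449% ± 0.072 and in cortex 0.305% ± 0.041 against 0.279% ± 0.020. Mitochondrial transcripts moved with it, at 0.135% ± 0.051 against 0.056% ± 0.018 in hippocampus and 0.032% ± 0.006 against 0.022% ± 0.002 in cortex, and their part in the result was not tested. Without dentate granule-like nuclei, a choice made after the data were seen, the difference was 0.055 points (7 of 8 units, exact sign-flip permutation p = 0.0156).

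**Figure D5:**
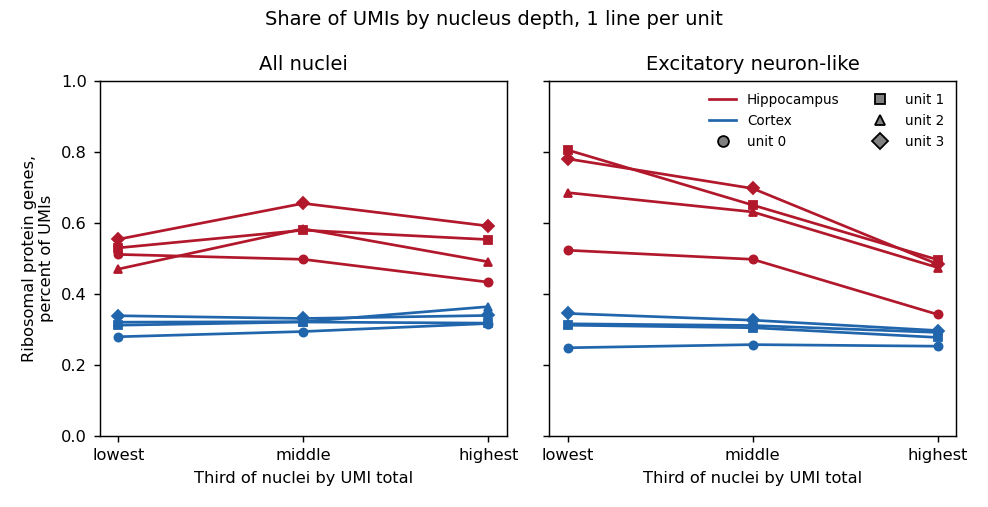
Share of UMIs in ribosomal protein genes (y axis) in the lowest, middle and highest part of nuclei by UMI total (x axis), 1 line per unit. In excitatory neuron-like nuclei the hippocampal lines fall from a mean of 0.699% to 0.449%, and the cortical mean goes from 0.305% to 0.279%, with the line of cortex 0 not falling.

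Other genes of translation were read from lists, where 9.19% of all 12855 genes tested were higher and 1097 of them lower. In the region comparison over all nuclei, 7 of 12 other genes with a 5′ pyrimidine tract or fused to a ribosomal protein were higher and none lower (edgeR, median log2 fold change 0.53). They include Eef1a1, the factor that brings aminoacyl-tRNA to the ribosome (1.01 ± 0.17, edgeR adjusted p = 0.00147), Naca of the nascent polypeptide complex (0.58 ± 0.12, 0.00492) and Npm1, a nucleolar chaperone (0.60 ± 0.14, 0.011). Elongation factors had 3 of 10 higher, among them Eef1g (0.60 ± 0.11), and 1 lower, the inhibitory kinase gene Eef2k (-0.53 ± 0.12). Initiation factors had 3 of 35 higher, among them Eif2s2 (0.46 ± 0.11), and 2 lower, the translational repressor gene Eif4ebp1 (-1.63 ± 0.33) and Eif4g3 (-0.47 ± 0.11). Ribosome biogenesis genes, whose products assemble the subunits in the nucleolus, had 2 of 40 higher, Ncl (0.40 ± 0.09) and Npm1, and 2 lower, among them Gar1 (-0.49 ± 0.15). The counts for initiation factors and biogenesis genes are near or under the shares over all genes. The genes named here have edgeR adjusted p of 0.0366 or less.

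Mitochondrial ribosomal proteins, a separate set, had a median log2 fold change of 0.02 over 75 tested, and the one nearest to the threshold was Mrpl52 (0.45 ± 0.15, edgeR adjusted p = 0.0552). Genes of the mTOR pathway had 1 of 21 higher, Mycl (1.04 ± 0.30, edgeR adjusted p = 0.0314), and 2 lower, Eif4ebp1 and Rps6ka3 (-0.59 ± 0.16, 0.0214). Host genes of small nucleolar RNAs had 1 of 9 higher, Snhg5 (0.54 ± 0.11, 0.00562), with Snhg9 at 0.93 ± 0.32 (0.0594) and Snhg7 at 0.43 ± 0.16 (0.0738). Nuclear genes of the respiratory chain had 3 of 25 higher: Uqcrb (0.52 ± 0.12), Cox7c (0.60 ± 0.16) and Ndufa2 (0.41 ± 0.13). The counts for mTOR pathway, host and respiratory chain genes are likewise near or under the shares over all genes. Of 10 mitochondrially encoded transcripts tested, 9 were higher, led by mt-Rnr2 (1.42 ± 0.10), mt-Rnr1 (1.51 ± 0.12) and mt-Nd4 (1.41 ± 0.19), with edgeR adjusted p from 2.44e-06 to 0.000316. Nuclear-retained RNAs split, with Neat1 (1.65 ± 0.12) and Malat1 (0.29 ± 0.06) higher and 3 of 7 lower, among them Snhg11 (-0.46 ± 0.08).

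Rows close to the members moved with them. Of 24 ribosomal protein pseudogene rows, 7 were tested and 6 rose, among them Rps26-ps1 (2.23 ± 0.30), Rpl13a-ps1 (1.23 ± 0.26) and Rpl13-ps3 (1.42 ± 0.31). Of 4 ribosomal protein-like genes outside the symbol rule, Rps3a1 (0.92 ± 0.14), Rpl22l1 (0.76 ± 0.20) and Rpl36al (0.78 ± 0.24) rose (edgeR adjusted p = 0.000689, 0.0177 and 0.0415). All 24 pseudogene rows together held 2109 UMIs.

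Over the 10 libraries, the genes outside the set whose level followed the summed ribosomal protein level most closely were Pcdh20, Fam19a2, Itga8, Orai2 and Rps3a1 (Pearson r from 0.971 to 0.981 on log2 CPM, of 8622 genes). The libraries fall into 2 regions and the genes share their depth, so these values are a description. Pcdh20, a protocadherin among the leading genes of the dentate granule-like cluster, averaged 117 CPM in hippocampal and 17.6 CPM in cortical libraries.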

How the data were processed

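The deposited table holds UMI counts per gene and nucleus, whole numbers the authors did not normalise. STAR, Seurat and build mm10 are named per the submitters' processing notes. The selection of nuclei, the collapsing of UMIs and the use of intronic reads are not given in the sources used here. Columns of nuclei whose name matches no library here (1689 of 13313) were not used.

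Nuclei were clustered with scanpy 1.11.5 and leidenalg 0.10.2 (Python 3.11.15; 2000 variable genes, 40 principal components, 20 neighbours, resolution 2.0) without ribosomal protein and mitochondrial genes. Clusters were named from marker lists, with score thresholds set after the table was read, so shares of classes rest on rebuilt names. Likely doublets (277 nuclei, 2.38%) were kept, and left out in an alternative. Counts were summed per unit and class (at least 20 nuclei) and tested with edgeR 4.0.16 in R 4.3.3 (quasi-likelihood test, filterByExpr, TMM, Benjamini-Hochberg adjustment over all genes tested), with unit as a block between classes. CPM use TMM-scaled totals, and SE is the absolute log2 fold change over the square root of F. Shares were compared with exact permutation tests over units, two-sided throughout, and nuclei were ranked by depth within each library into 3 equal parts.

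Alternatives were DESeq2 1.42.0, totals without TMM, no count filter, a replicate block or none, other cluster resolutions, thinning, no doublets, and each unit left out. Scripts were tested on simulated data. Libraries of a region were compared by a chi-square over genes with at least 10 UMIs. Genes were named by rule: the 6 highest members, up to 6 per direction and comparison with adjusted p under 0.05, mean CPM of at least 20 and no overlap (between classes, the same sign in every unit), the paralogs, up to 3 genes per list and 5 genes of like pattern. Some members that meet the rule are not reported by name here. Members, lists and rules were chosen with earlier results of these data known. Start windows are from RefSeq (GRCm38.p6). Lengths, UMIs per kilobase and shared sequence use a single GENCODE M21 transcript per gene, the longest protein-coding one, with principal transcripts preferred.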

Additional observations from a re-analysis of the deposited data

Results flagged for a closer look

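In each group of 4 units the highest and lowest value was set against the others, and 5 of 110 groups held a unit far from the rest, where chance flags about 1 in 20. Hippocampus 0 had a ribosomal protein share of 0.305% in excitatory neuron-like nuclei without dentate granule-like ones, against 0.435% to 0.458% in the other hippocampal units. Cortex 0 had 28.1 CPM of Rpl37 over all nuclei, against 63.7 to 67.2 CPM. Cortex 1 had 138 CPM of Rpl35a in endothelial-like nuclei, against 82.2 to 87.4 CPM. For Rplp1, cortex 2 had 73.4 CPM in inhibitory neuron-like nuclei, against 54.2 to 55.1 CPM, and hippocampus 0 had 102 CPM in excitatory neuron-like nuclei, against 173 to 179 CPM.

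The difference from excitatory neuron-like nuclei varied between the regions in 3 of the 6 tests before adjustment (exact permutation p = 0.0286 each, 0.0571 adjusted). For inhibitory neuron-like nuclei it was lower in hippocampus than in cortex by -0.155 percentage points, or -0.50 as a log2 ratio. For endothelial-like nuclei it was higher in hippocampus by 0.501 percentage points.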

How the results depend on the processing

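In 522 alternatives to 37 results of named members, 53 fell under the threshold and none changed direction. In 263 of the 522 a unit was left out, and 34 of these fell under the threshold. Named members had no overlap or the same sign in every unit, so that choice all but fixed their direction when a unit was left out. Counts of members called under the alternatives are given without the share over all genes in the same fit. They therefore do not separate the members from the overall rate of calls. Leaving out each unit gave 41 to 55 members called between the regions over all nuclei, 30 to 53 in excitatory neuron-like, 0 to 2 in astrocyte-like (2 without cortex 3, 1 without hippocampus 0) and 0 to 26 in endothelial-like nuclei (6 without cortex 3). Between classes it gave 4 to 7 (inhibitory), 1 to 7 (astrocyte), 2 to 4 (oligodendrocyte), 47 to 53 (endothelial) and 11 to 16 (dentate against CA1). The astrocyte count was 1 without hippocampus 0, and its balance turned without cortex 0 or 3 (5 each), hippocampus 1 (3) or hippocampus 2 (7).

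Whether library numbers pair the samples cannot be told from correlations over so few units. Same-numbered units correlated at 0.428, 0.097, 0.017 and 0.029 after region means were removed, and only number 0 correlated best with its own. With a replicate block the members called between the regions were 56 (all nuclei), 53 (excitatory), 0 (inhibitory), 1 (astrocyte) and 21 (endothelial), and the share difference was 0.204 points (exact sign-flip permutation p = 0.125). With no replicate block the astrocyte count against excitatory neuron-like nuclei was 3. Excitatory nuclei without dentate ones gave 7. In the endothelial-like region test, DESeq2 gave 6, no count filter 22, numbers 1 to 3 alone 21 and no doublets 6. Nuclei with no hemoglobin UMI gave 2, from 2 units per region. At a cluster resolution of 1.0 counts were 2 (inhibitory, region), and against excitatory neuron-like nuclei 12 (inhibitory), 4 (astrocyte, balance turned) and 0 (oligodendrocyte). No count filter gave 1 (astrocyte, region), 10 (inhibitory) and 7 (astrocyte, balance turned), library totals without TMM 5 and DESeq2 3 (astrocyte, balance turned in both), DESeq2 1 (oligodendrocyte) and no doublets 1 (microglia). The cause was not tested.

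The share difference between the regions was 0.180 to 0.231 points with each unit left out and 0.224 with numbers 1 to 3. Against excitatory neuron-like nuclei the inhibitory difference was -0.095 to -0.061, above p of 0.05 in 6 of 8 cases, and the endothelial one 0.708 to 0.813, or 0.609 in nuclei with no hemoglobin UMI, where 4 units limit p. The precursor difference ran from -0.025 to 0.015, positive without hippocampus 1, and was 0.024 in thinned nuclei. The depth difference ran from -0.024 to -0.0067 points, and was -0.035 in named clusters, 0.138 within excitatory neuron-like nuclei and 0.055 without dentate ones. Totals without TMM moved the median of all genes by over 0.1 on the log2 scale in the precursor, astrocyte region and dentate tests. Few UMIs per member limited tests in the rarer classes.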
